A study of Rattus norvegicus with 2 samples.

Results

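The nuclear genes of oxidative phosphorylation were examined complex by complex in the liver of rats fed a choline-deficient diet. Members were all gene probes whose array name begins with Nduf, Uqcr, Atp5, Cox4, Cox5, Cox6, Cox7 or Cox8, or is Sdha, Sdhb, Sdhc, Sdhd or Cyc1. This took 109 of the 41012 distinct gene probes, carrying 90 of 33719 names. The name rule itself uses no measured value, although it was set with earlier results of these data known. Of the 90 genes, 42 belong by name to complex I, 4 to complex II, 9 to complex III, 17 to complex IV and 18 to complex V, and 84 could be tested.

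In the inner mitochondrial membrane, complexes I and II pass electrons from NADH and succinate to ubiquinone, complex III passes them on to cytochrome c, and complex IV passes them to oxygen. Complexes I, III and IV pump protons as they do so, and complex V, the ATP synthase, makes ATP from the proton gradient. A liver cell holds many mitochondria and uses this ATP for gluconeogenesis, urea synthesis and secretion. Some subunits of the proton-pumping complexes and of complex V are encoded by mitochondrial DNA, and all members here are nuclear genes.

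Wistar rats (spelled Wister in the labels) of 7 weeks received a choline-deficient or a control diet for 10 days, and total RNA of liver was hybridised to 2 two-colour oligonucleotide arrays. The dyes were swapped: array 1 carried choline-deficient RNA in Cy5 and control-diet RNA in Cy3, and array 2 the reverse. Sample titles mention 4 rats on the deficient diet, but not whether array 1 and array 2 received separate rats, pools or the same extracts, so p-values measure only the spread between arrays, which may be technical. Every ratio below is the log2 of choline-deficient over control, so a negative value means lower with the choline-deficient diet.

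Probes for the 2 genes that passed the test and for the other genes of subunit c are shown here, since a ratio belongs to the stretch of transcript its probe binds. For Atp5g1 and Ndufv3 they are the probes tested, and for Atp5g2 and Atp5g3 they are dimmer further probes and not the brightest ones that were tested. Atp5g1, Atp5g2 and Atp5g3 encode the same mature subunit c of the ATP synthase ring with different mitochondrial targeting sequences, and Ndufv3 encodes a small accessory subunit of the NADH-binding part of complex I. In the array files, which use the rat build rn4, the Atp5g1 probe is placed on the minus strand at chr10:84788826-84789159, a span longer than its 60 bases. The Atp5g2 probe shown is on the minus strand at chr7:141415194-141415253, the first Atp5g3 probe is on the minus strand at chr3:56512525-56512584, and the other Atp5g3 probe has no position in the files. The Ndufv3 probe is on the plus strand at chr20:9952677-9952736. Exon and intron annotation of this build was not used here. Each is written 5′ to 3′, and the capitals mark the longest run of bases, 12, that both Atp5g3 probes share. Aligned on the capitals, these Atp5g3 probes also match over the rest of their overlap, apart from scattered single bases. They thus read closely alike sequences, and whether both read the same stretch of the same gene was not tested.
Atp5g1: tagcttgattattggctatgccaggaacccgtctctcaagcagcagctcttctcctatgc
Atp5g2: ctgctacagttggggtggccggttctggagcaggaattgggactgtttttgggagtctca
Atp5g3, placed probe: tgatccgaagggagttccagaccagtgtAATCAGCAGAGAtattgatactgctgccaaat
Atp5g3, unplaced probe: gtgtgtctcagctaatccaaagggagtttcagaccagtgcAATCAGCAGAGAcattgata
Ndufv3: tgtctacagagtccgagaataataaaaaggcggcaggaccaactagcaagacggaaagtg
No run of more than 7 bases is shared between any probe of 1 of these Atp5g genes and any probe of another. The probes were not compared with whole transcripts of the other Atp5g genes, so binding of a probe to another gene's transcript was not tested.

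Expression of the oxidative phosphorylation genes differed little between the diets. Ndufv3 was higher and Atp5g1 was lower at a Benjamini-Hochberg adjusted p under 0.05 in limma's test, and the other 82 of 84 members tested did not pass. These 2 calls are 2.38% of the members, while 8.62% of the 18195 genes tested were called (4.37% higher and 4.25% lower). Not one of the 84 reached 1.5-fold, which 1.86% of all genes did, and the 95% interval of every member's mean ratio, from limma's pooled variance, lay within 1.5-fold in either direction. The half-width of that interval had a median of 0.20 and a maximum of 0.23 on the log2 scale. It comes mostly from spread pooled over genes, so the interval does not bound the change of a single member. For Atp5i the interval ran from -0.48 to -0.02, while its array values of 0.19 and -0.69 both lay outside it. For 60 members the interval also lay within 1.25-fold, which is 71.4% of them beside 63.8% of all genes. A size count with no test gave the same picture. Ndufv3 and Atp5g1 were again the only members that reached 1.2-fold on both arrays with the same sign, and 6.95% of all genes did.

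Most member transcripts gave bright spots, and 74 of the 84 lay in the brightest of 4 equal groups of genes by mean signal. In that group 15.7% of all 4549 genes were called, against 2 of the 74 members there, or 2.70%. The interquartile range of the members' mean ratios was 0.15 on the log2 scale (0.14 for the 74 bright members), against 0.25 for all genes of that group and 0.17 for all genes tested.

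**Figure D1:**
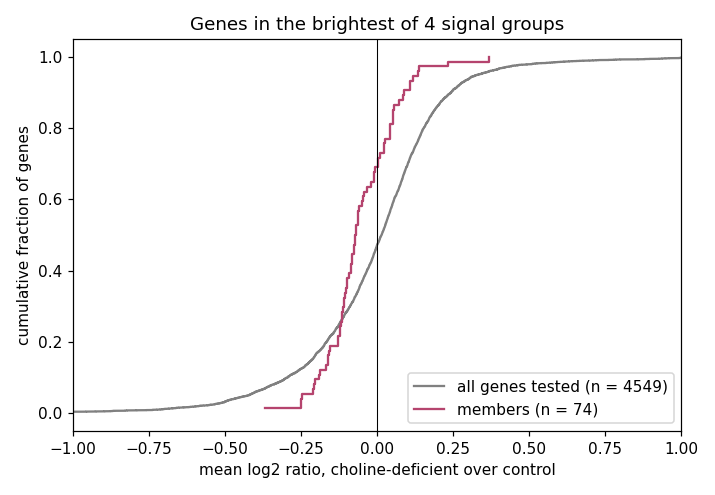
The cumulative fraction of genes (vertical axis) is plotted against the mean log2 ratio of choline-deficient over control (horizontal axis, cut at 1 in both directions) for genes in the brightest of 4 signal groups. The line of the 74 members is steeper and lies within 0.37 of 0, while that of all 4549 genes is broader and runs past both ends of the axis.

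The members' ratios nevertheless lay slightly below 0. The median member was at -0.070, with array medians of -0.067 (array 1) and -0.047 (array 2), beside 0.00 for all genes, and the mean ratio was below 0 for 57 of 84. On both arrays 38 members were lower (45.2%, beside 27% of all genes) and 12 were higher (14.3%, beside 29.4%). Another 34 pointed in opposite directions (40.5%, beside 43.6%). Among the 74 members of the brightest signal group, 43.2% were lower on both arrays, 14.9% higher and 41.9% opposite. The shares of all genes in that group were 32.1%, 35.2% and 32.7%. The offset is smaller than a single member's interval, but that interval does not measure the uncertainty of a median over 84 genes. The offset was not tested. It depended on the dye correction: with each array centred on its median in place of loess, the members' median was 0.11 and that of all genes 0.083. That median of all genes, here and below, covers every signal level. The median of the brightest signal group under median centring is not given. By complex, the median was -0.088 for complex I, -0.089 for complex II, 0.031 for complex III, -0.034 for complex IV and -0.063 for complex V, and under median centring all 5 were above 0, from 0.084 to 0.21. The arrays differed too: the medians on array 1 and array 2 were -0.023 and -0.077 for complex I, -0.16 and -0.032 for complex II, -0.043 and 0.038 for complex III, -0.071 and -0.023 for complex IV, and -0.076 and -0.050 for complex V.

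**Figure D2:**
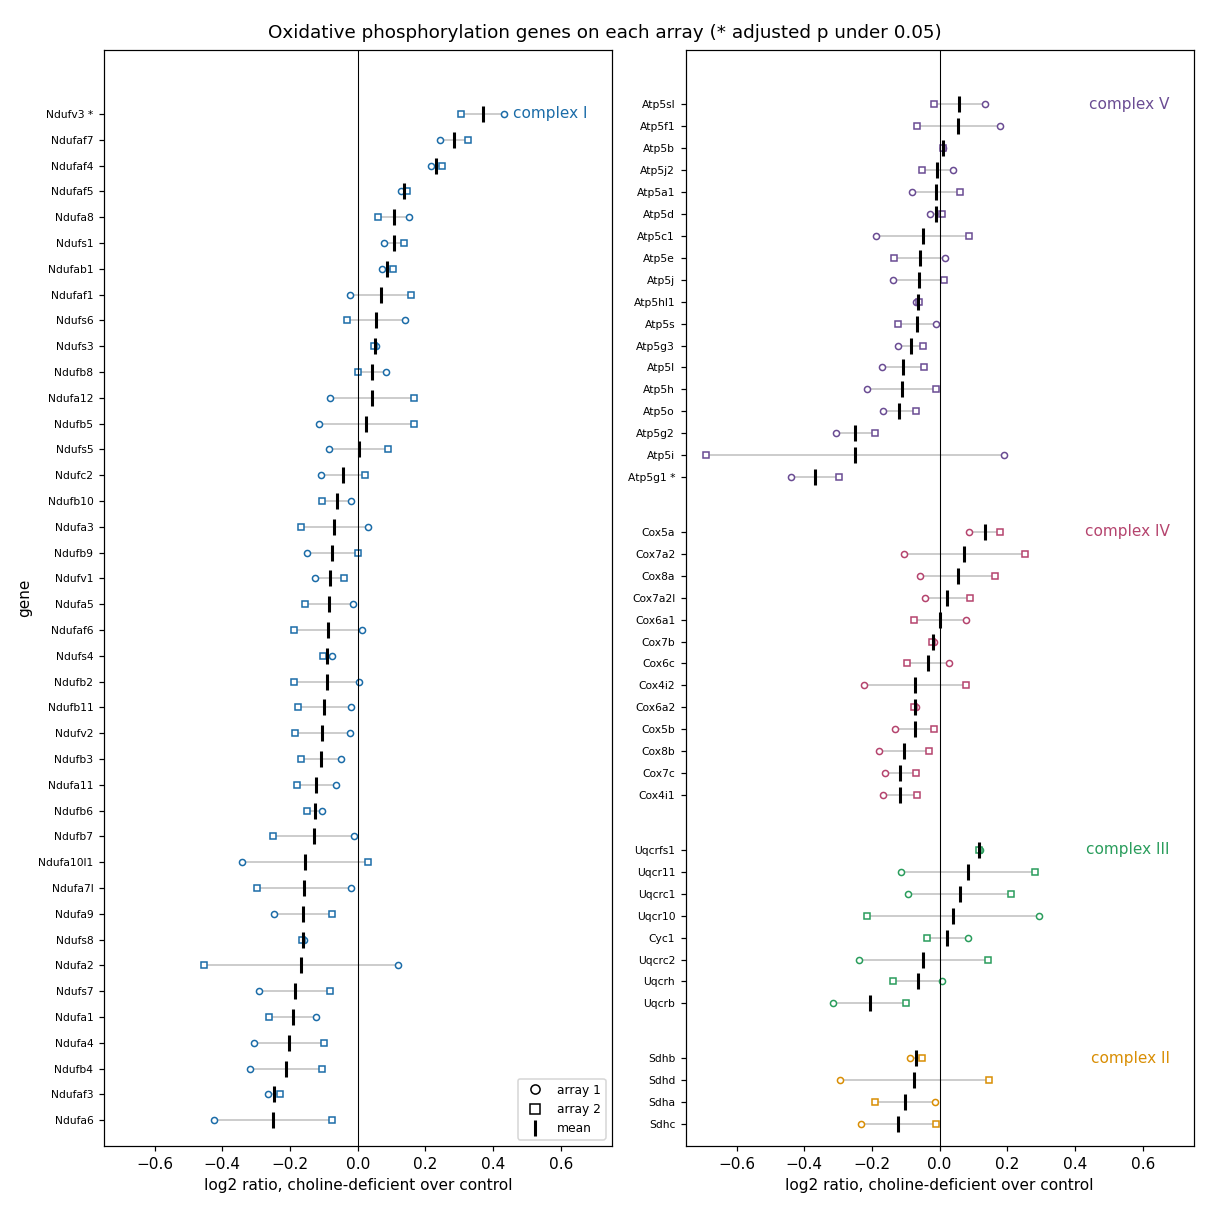
Each row is 1 gene, for 83 of the 84 genes tested, sorted by mean within its complex. Circles (array 1) and squares (array 2) give the log2 ratio of choline-deficient over control after loess, the bar gives their mean, and asterisks mark limma adjusted p under 0.05. Means run from -0.37 for Atp5g1 to 0.37 for Ndufv3, and the arrays lie far apart for Atp5i.

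The arrays ranked the members differently. Across the 84 members, the ratios on array 1 and array 2 had a Pearson r of 0.09 and a Spearman rho of 0.06, against 0.69 and 0.54 across all genes in the brightest signal group. These are descriptions across genes, which are not independent, and each pair of ratios comes from the same 2 arrays. Gene by gene, the arrays lay about equally far apart in both sets. The median absolute difference between them was 0.14 for the members and 0.14 for all genes in the brightest signal group. The members' mean ratios spanned a narrower range, with an interquartile range of 0.15 against 0.25. The widest gap was in Atp5i, which encodes subunit e of the membrane part of ATP synthase, with 0.19 on array 1 and -0.69 on array 2. Ndufa2 (0.12 and -0.45) and Uqcr10 (0.29 and -0.21) also had opposite signs.

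**Figure D3:**
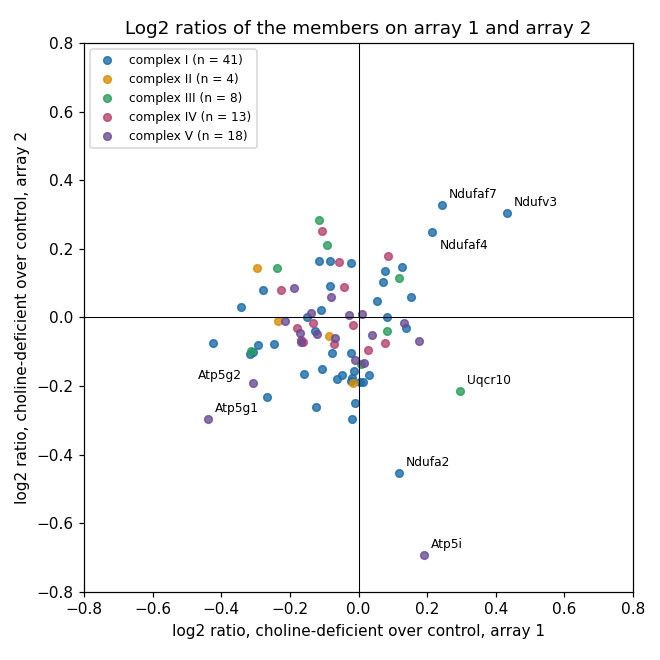
Every point is 1 member, placed by its log2 ratio of choline-deficient over control on array 1 (horizontal) and array 2 (vertical), and coloured by complex. Most points form a round cloud near 0. Ndufv3, Ndufaf7 and Ndufaf4 stand apart at the upper right, Atp5g1 at the lower left, and Atp5i, Ndufa2 and Uqcr10 at the lower right, where the arrays differ in sign.

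In complex I, the NADH dehydrogenase, 1 of 41 genes was higher, none was lower and 40 did not pass. Ndufv3 had a normalised log2 signal of 12.67 in control and 13.10 in choline-deficient RNA on array 1, and of 12.64 and 12.94 on array 2. Both choline-deficient values were above both control values, with log2 ratios of 0.43 and 0.30. The mean was 0.37 ± 0.09 (SD, n = 2 arrays), or 1.29-fold, with a limma adjusted p of 0.0099. It did not pass when the deposited log ratio was used (mean 0.37, adjusted p = 0.406), nor with median centring, where the arrays took opposite signs (1.70 and -0.58, adjusted p = 1.00). The other genes of the NADH-binding flavoprotein group did not share this: Ndufv1, which holds the flavin, was at -0.08 and Ndufv2, an iron-sulphur subunit, at -0.10, both not called. The iron-sulphur group Ndufs, which carries electrons towards ubiquinone, had 4 of 8 means below 0 and a median of -0.04, from -0.19 for Ndufs7 to 0.11 for Ndufs1.

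The accessory subunits of complex I had the lowest medians of its larger groups, at -0.16 for 12 Ndufa genes (10 below 0) and -0.10 for 10 Ndufb genes (8 below 0), and none of these 22 was called. With median centring in place of loess the medians were 0.032 for Ndufa, 0.082 for Ndufb and 0.13 for Ndufs, beside 0.083 for all genes. These medians were then above 0, but Ndufa stayed below the all-gene median and was the lowest of these groups. The lowest was Ndufa6, which binds the mitochondrial acyl carrier protein within the complex, at -0.42 on array 1 and -0.08 on array 2. Its mean of -0.25 ± 0.25 did not pass (limma adjusted p = 0.147). Ndufb4 was at -0.21 and Ndufa4 at -0.20. Ndufa4 is counted here by its name, although its protein is now assigned to complex IV. Ndufab1, the acyl carrier protein itself, was at 0.09, and Ndufa8 at 0.11.

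Assembly factors, which build complex I and leave it, had 4 of 6 means above 0 (median 0.10), and none passed the test. With median centring their median was 0.28, beside 0.083 for all genes. Ndufaf7, a methyltransferase, was at 8.79 in control and 9.03 in choline-deficient RNA on array 1, and at 8.72 and 9.05 on array 2. Both choline-deficient values lay above both control values. The mean log2 ratio was 0.28 ± 0.06 with a limma adjusted p of 0.069, and it passed with an intensity trend in the variance (adjusted p = 0.021). Ndufaf4 was at 0.22 and 0.25 on the arrays (mean 0.23, limma adjusted p = 0.183). Of its dimmer probes, the brighter gave 0.24 on array 1 and -0.09 on array 2 (mean 0.07). The other gave 0.30 and 0.03 (mean 0.17). Ndufaf5, which hydroxylates an arginine of Ndufs7, was at 0.14. Ndufaf3, whose protein works together with that of Ndufaf4, was at -0.27 and -0.23 (mean -0.25, adjusted p = 0.138), so these partners lay on opposite sides of 0 on both arrays. The difference between them was not tested.

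In complex II, succinate dehydrogenase, all 4 genes had means below 0 in a narrow range, and none was called. The flavoprotein Sdha was at -0.01 on array 1 and -0.19 on array 2 (mean -0.10). The iron-sulphur subunit Sdhb was at -0.09 and -0.05 (mean -0.07). The membrane anchors Sdhc and Sdhd were at -0.23 and -0.01 (mean -0.12) and at -0.29 and 0.15 (mean -0.07). With median centring, the complex II median was 0.084, beside 0.083 for genes of every signal level. All 4 genes lay in the brightest signal group, whose own median under that setting is not given, so the direction is not settled.

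In complex III, the cytochrome bc complex, none of 8 genes was called and 6 of the 8 had opposite signs on the arrays. Uqcrb, a small ubiquinone-binding subunit, was at -0.31 and -0.10 on the arrays (mean -0.21 ± 0.15, limma adjusted p = 0.276). Its second probe gave -0.22 and -0.21, so both of its brighter probes were below 0 on both arrays. Uqcrfs1, the Rieske iron-sulphur protein, was at 0.12 on both arrays, and Uqcr11 was at -0.11 and 0.28. Cyc1, the cytochrome that hands electrons to cytochrome c, was at 0.08 and -0.04 (mean 0.02). The core proteins Uqcrc1 and Uqcrc2 were at 0.06 and -0.05. Uqcrq was not tested, since neither diet was well above background on array 1.

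In complex IV, cytochrome c oxidase, none of 13 genes was called, and 12 of the 13 intervals lay within 1.25-fold. The highest mean was that of Cox5a, at 0.09 and 0.18 on the arrays (mean 0.13), and the lowest were Cox4i1 and Cox7c at -0.12. Cox4i1, the widespread form of the largest nuclear subunit, was at -0.17 and -0.07, and Cox4i2, the form best known from lung, was at -0.22 and 0.08 (mean -0.07). Cox7c had a dimmer probe that was above 0 on both arrays (0.13 and 0.15). In the files, that dimmer probe lies at chr2:15254519-15254578, within the longer stretch, chr2:15254139-15255000, over which the bases of the brighter one are placed.

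Several complex IV subunits have tissue forms, and several forms known from other tissues did not give a measurable signal. Cox6a1, the liver form, was at 0.08 and -0.07 (mean 0.00), and Cox6a2, the heart and muscle form, was at -0.07 and -0.08. Cox8a, the widespread form, was at -0.06 and 0.16 (mean 0.05), and Cox8b, another muscle form, was at -0.18 and -0.03 (mean -0.11). Cox8b was not well above background in choline-deficient RNA on array 2. Cox6b2, Cox7b2 and Cox8c, known from testis, and the pseudogene-like name Cox6c-ps1 did not pass the signal filter. Of the muscle marker genes, 5 of 8 (Ckm, Acta1, Myl1, Tnnt3 and Myh6) did not pass it either. Cox7a2, the liver form, was at 0.07, Cox7a2l, known from respiratory supercomplexes, was at 0.02, and Cox7b was at -0.02 on both arrays.

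In complex V, the ATP synthase, 1 of 18 genes was lower, none was higher and 17 did not pass. The 18 are counted by name and include Atp5s and Atp5sl, now named Dmac2l and Dmac2. Without these, 1 of 16 was lower. Atp5g1 had a normalised log2 signal of 14.97 in control and 14.53 in choline-deficient RNA on array 1, and of 14.92 and 14.62 on array 2. Both choline-deficient values lay below both control values, with log2 ratios of -0.44 and -0.30. The mean was -0.37 ± 0.10 (SD, n = 2 arrays), 1.29-fold lower, with a limma adjusted p of 0.010. The call rested on the processing: the adjusted p was 0.060 with a normexp offset of 16, 0.076 with an intensity trend in the variance and 0.404 with the deposited log ratio. The mean stayed at -0.35 to -0.37 under these. With median centring the arrays took opposite signs (0.98 and -1.37), the mean was -0.20 and the adjusted p was 1.00.

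The other genes of subunit c did not pass. Atp5g2 was at -0.31 and -0.19 at its brightest probe (mean -0.25 ± 0.08, limma adjusted p = 0.138), and at -0.20 and 0.10 at the probe printed above. Atp5g3 was at -0.12 and -0.05 at its brightest probe (mean -0.09), at 0.20 and -0.15 at its placed probe printed above, and at 0.01 and -0.07 at the unplaced one. The probes of Atp5g2 and Atp5g3 thus gave values on both sides of 0, while Atp5g1 had a single probe. The difference between Atp5g1 and these genes was not tested.

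**Figure D4:**
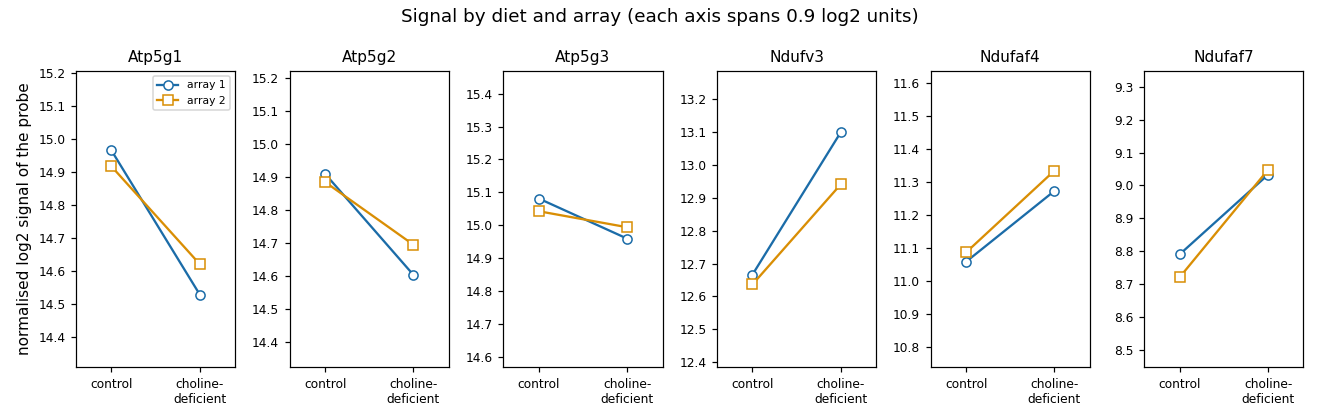
The normalised log2 signal (vertical axis, spanning 0.9 units in every panel) is drawn by diet for 6 genes, with 1 line per array (circles array 1, squares array 2). Atp5g1 falls from control to choline-deficient on both arrays and Ndufv3 rises on both; Atp5g2, Atp5g3, Ndufaf4 and Ndufaf7 did not pass limma's test, and heights cannot be compared between panels.

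Within complex V, the peripheral stalk and membrane part had 10 of 11 means below 0 (median -0.11). Of these 11, Atp5hl1 (mean -0.07) had the lowest signal. The soluble part, which holds the catalytic alpha and beta subunits and the central stalk (Atp5a1, Atp5b, Atp5c1, Atp5d and Atp5e), had a median of -0.01 over 5 genes. Atp5b, the catalytic beta subunit, was at 0.01 on both arrays, Atp5a1, the alpha subunit, was at -0.08 and 0.06, and Atp5d, of the central stalk, was at -0.03 and 0.01. Of the peripheral stalk, Atp5o, which joins it to the catalytic subunits, was at -0.17 and -0.07, Atp5h at -0.21 and -0.01, and Atp5f1, subunit b, at 0.18 and -0.07. This contrast between parts was not tested. Under median centring the peripheral stalk and membrane part had a median of 0.065 and the soluble part one of 0.17, beside 0.083 for all genes.

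Genes that serve oxidative phosphorylation without being subunits were read from fixed lists, beside 8.62% of all genes called (4.37% higher and 4.25% lower). Of 27 assembly factors outside the Nduf names, 1 was lower, none was higher and 26 did not pass (median -0.03). The lower one was Surf1, which acts in complex IV assembly, at -0.21 and -0.45 (mean -0.33 ± 0.17, limma adjusted p = 0.029). Cox20, another complex IV factor, was at -0.29 and did not pass. Of 22 carriers, coupling proteins and electron carriers, 2 were lower, none was higher and 20 did not pass (median 0.00), a share close to that of all genes. Etfb, the beta subunit of the electron transfer flavoprotein that brings electrons from fatty acid oxidation, was at -0.74 and -0.32 (mean -0.53 ± 0.30). Its partners Etfa and Etfdh, at -0.18 and -0.17, did not pass. Gpd2, the mitochondrial glycerol phosphate dehydrogenase, was at -0.76 and -0.56 (mean -0.66 ± 0.14). The limma adjusted p was 0.00014 for Etfb and 1.2e-06 for Gpd2. Both routes bring electrons to ubiquinone beside complexes I and II. Atpif1, the inhibitor of ATP synthase, was at 0.40 and 0.17 and did not pass (adjusted p = 0.074).

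Of 16 regulators of mitochondrial gene expression, 1 was higher, none was lower and 15 did not pass (median -0.02). Pprc1, a coactivator of the PGC family, was at 0.60 and 0.95 (mean 0.78 ± 0.24, limma adjusted p = 2.7e-08). The factor genes Nrf1 and Gabpa were at 0.02 and -0.05, and Tfam, which packages and transcribes mitochondrial DNA, was at -0.03. None of 13 genes of the tricarboxylic acid cycle was called (median 0.01), and none of 68 genes of the mitochondrial ribosome was (median 0.03). Of the 13 subunits encoded by mitochondrial DNA, 0 were matched by name on the array.

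**Figure D5:**
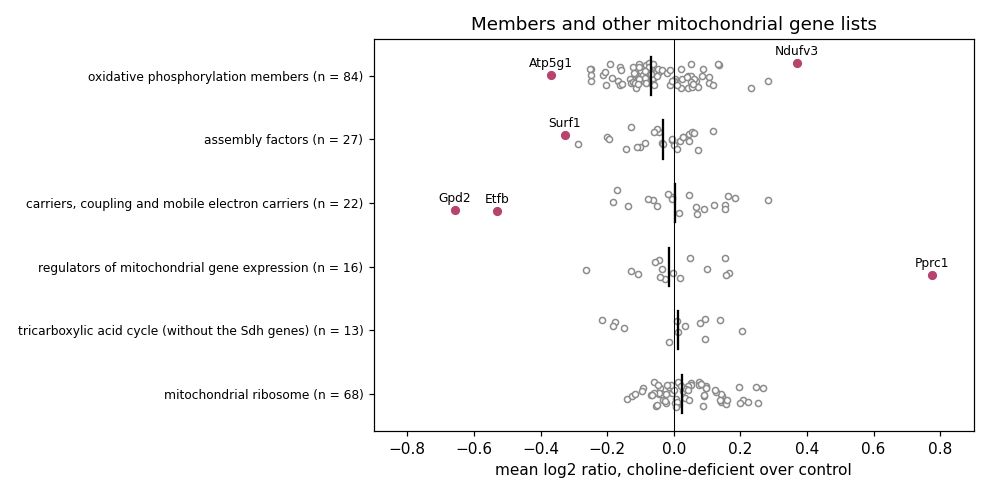
Each circle is the mean log2 ratio of choline-deficient over control (horizontal axis) of 1 gene, in rows by list, with the list's median as a black line; filled circles passed limma's adjusted p of 0.05 and the vertical scatter is only for legibility. Outside the members, Surf1, Gpd2 and Etfb are lower and Pprc1 is higher, and the rows of the tricarboxylic acid cycle and the mitochondrial ribosome have no filled circle.

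Some markers of several liver cell types differed between the diets, beside 8.62% of all genes called. Of 8 hepatocyte markers, Apoa1 and Ass1 were higher, Alb was lower and 5 did not pass (median log2 ratio -0.12). The mean log2 signal of the 8 was 14.6 to 14.9 in control and 14.6 to 14.8 in choline-deficient RNA. Of 7 Kupffer cell and macrophage markers, Marco was higher, none was lower and 6 did not pass (median -0.06). Clec4f, among those 6, was below 0 on both arrays (mean -0.29, limma adjusted p = 0.063). The mean signal of the 7 was 10.5 to 10.6 in control and 10.6 in choline-deficient RNA. Of 4 endothelial markers tested, Kdr was lower (-0.46), none was higher and 3 did not pass (median -0.13). Of 4 stellate cell markers, Col1a1 was higher (0.53), none was lower and 3 did not pass (median -0.01). Those 3 were Pdgfrb, Lrat and Des, at -0.23, -0.10 and 0.08. Of 3 erythroid markers tested, Hbb-b1 was lower (-0.44), and Cfd, the only adipose marker of 4 that passed the filter, was lower (-0.49). None of the 3 cholangiocyte, 3 T and NK cell, 3 muscle and 1 testis markers tested was called. Their part in the members' values was not tested. In whole liver, fewer cells of a type and less RNA per cell cannot be told apart.

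Promoter sequences of the members were searched for motifs known from nuclear genes of mitochondrial proteins. RefSeq promoters of assembly GRCr8, from 250 bases before to 50 after the start, were found for 73 of the 90 genes. The motif GCATGCGC, the core that the factor NRF1 binds, was searched on both strands, as was CCGGAAGT, which ETS factors such as GABP bind; the motifs have different letters. The first stood in 11 of 73 member promoters (15.1%), against 2.66% of all 27457 promoters and 3.23% of the 19005 of protein-coding genes. The second stood in 7 (9.59%), against 4.01% and 4.99%. By complex, the first motif was in 4 of 35 promoters of complex I and in 4 of 15 of complex V, and the second in 2 of 6 of complex III. The 120 bases before the start are shown for 1 gene of complexes I, III, IV and V. They are written 5′ to 3′ on the gene's strand with the motif in capitals. These are examples whose motif lies in that window. In Ndufaf4, Ndufs1, Sdhb and Atp5l the motif lies elsewhere in the stretch searched. The 10 capitals in Atp5g2 are 2 overlapping matches to the NRF1 core, 1 on each strand. The windows are chr7:115750318-115750437 (minus) for Ndufa6, chr5:134790883-134791002 (minus) for Uqcrh, chr9:46417717-46417836 (plus) for Cox5b and chr7:135678219-135678338 (minus) for Atp5g2, now named Atp5mc2.
Ndufa6: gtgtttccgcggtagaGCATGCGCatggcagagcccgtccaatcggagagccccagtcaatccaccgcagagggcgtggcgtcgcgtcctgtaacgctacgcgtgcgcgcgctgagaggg
Uqcrh: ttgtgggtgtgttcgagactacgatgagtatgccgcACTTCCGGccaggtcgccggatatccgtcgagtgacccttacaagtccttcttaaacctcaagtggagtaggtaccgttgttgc
Cox5b: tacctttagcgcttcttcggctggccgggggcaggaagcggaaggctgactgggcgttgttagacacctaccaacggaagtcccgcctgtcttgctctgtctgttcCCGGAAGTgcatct
Atp5g2: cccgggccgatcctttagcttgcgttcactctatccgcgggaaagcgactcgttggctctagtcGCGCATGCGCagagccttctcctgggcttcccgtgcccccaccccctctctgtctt

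Ratios were then set beside the motifs. The median log2 ratio was -0.11 for 10 tested members with the NRF1 core, -0.04 for 6 with the ETS motif and -0.07 for 52 with neither, a description without a test. Atp5g1 and Ndufv3 both belong to the last group. A match is a run of letters and not a bound site, and its absence from this window says only that the letters are not there.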

How the data were processed

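Per the file headers, the authors extracted both arrays with Agilent Feature Extraction 9.5.3.1 and placed probes on rn4, and both arrays came from 1 slide and 1 scan time. The deposited files hold spot and background intensity for each dye, and a deposited log10 ratio of Cy5 over Cy3. Here, with limma 3.58.1 in R 4.3.3, mean and median-background signals were corrected by normexp (offset 50) and loess within each array. Control and outlier spots were left out, and ratios were turned for the dye swap. A gene was tested at its brightest probe where that was well above background on both arrays in at least 1 diet. limma's lmFit and eBayes were run over 18195 genes, with Benjamini-Hochberg adjustment over all, and checked on simulated data. Of 43379 gene spots an array, 53.5% to 63.2% were well above background per dye, and none was saturated.

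Members and lists were chosen with earlier results of these data known. Named genes are those called, the 3 largest per complex, Sdh genes, Cyc1, tissue isoforms and genes whose probes differ in sign. Others were chosen after their values were seen. Alternatives changed the offset, background correction, dye normalization, filter, choice of probe and variance model. Of the 90 names, 88 matched the RefSeq table. One member is counted in the summaries and not reported on its own here.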

Additional observations from a re-analysis of the deposited data

How the results depend on the processing

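Ndufv3 and Atp5g1 kept the sign of their mean under every alternative, but both calls depended on the settings. The count of members called higher was 0 with the deposited log ratio, 0 with median centring and 2 with an intensity trend (Ndufv3 and Ndufaf7). The count called lower was 0 with a normexp offset of 16, the deposited log ratio, median centring and an intensity trend. With the deposited log ratio, limma called 0 of all genes (2122 at an unadjusted p under 0.05), and Ndufv3 was at 0.37 (adjusted p = 0.406). With median centring it called 0 genes (19 unadjusted); Atp5g1 was then at 0.98 on array 1 and -1.37 on array 2, and Ndufv3 at 1.70 and -0.58. The medians under median centring were 0.11 for all members, 0.089 for complex I, 0.084 for complex II, 0.21 for complex III, 0.13 for complex IV and 0.11 for complex V, against 0.083 for all genes. The cause was not tested. Leaving out each array in turn gave medians of -0.067 to -0.047 for all members, -0.077 to -0.023 for complex I, -0.16 to -0.032 for complex II, -0.043 to 0.038 for complex III, -0.071 to -0.023 for complex IV and -0.076 to -0.050 for complex V, and no count, since 1 array leaves no residual degrees of freedom. Other background settings, filters and probe choices kept both counts and the sign of these medians. No paired analysis was possible because the only group is 1 set of 2 ratios, each of which already sets both diets side by side. With 2 arrays, 63.0 prior degrees of freedom against 1 residual set the variance, so each p rests mostly on spread pooled over genes. Signal limits 6 names that were not well above background.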

Other observations

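Probes that read opposite strands were present for 2 members. A Uqcrb probe on the plus strand of chromosome 7 is the reverse complement, over 40 bases, of a minus-strand Uqcrb probe; the plus-strand probe was not well above background in either diet on either array. The minus-strand partner was well above background in both diets on both arrays, at 0.01 and -0.14. A dim Ndufb3 probe lies on the minus strand of chromosome 9 while the bright one lies on the plus strand. The dim probe was at 0.03 on array 1, and on array 2 choline-deficient RNA was not well above background at it, so no ratio is given there; the bright one was at -0.05 and -0.17.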
